A study of Arabidopsis thaliana with 6 samples.

Results

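A set of 27 genes stood apart in the roots of rsl4-1 seedlings of Arabidopsis thaliana while 35S::RSL4 roots stayed close to wild-type Col-0. They were 16 genes with a higher and 11 with a lower signal in rsl4-1, out of 13333 genes that have a probe set with 1 annotated gene on the ATH1 expression array. A gene was taken when its probe set had 1 nuclear locus on chromosomes 2 to 5, when both rsl4-1 arrays lay above, or both below, the other 4 arrays, when the mean log2 signal of rsl4-1 differed from Col-0 by at least 0.6, when 35S::RSL4 lay within 0.25 of Col-0 on the log2 scale, and when the highest genotype mean was at least 40 signal units. Of 9947 probe sets on these chromosomes 4649 reached that level, 860 of them had both rsl4-1 arrays beyond the rest, 98 of those also had the size, and 32 also kept 35S::RSL4 near Col-0. Then 5 were left out by family or place: the extensin gene AT3G28550, the class III peroxidase gene AT4G08780, and AT3G44340, AT3G45740 and AT3G47120, which lie in a stretch of chromosome 3 from AT3G44070 to AT3G47250. The genes were thus selected on the signals of all 6 arrays, and their differences between genotypes are given as a description. The genes were part of a fit over all probe sets, whose calls are counted below as a description and support nothing here. Over all 14170 tested probe sets, 19.6% had both rsl4-1 arrays above or both below the other 4.

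The RSL4 protein is a transcription factor of the basic helix-loop-helix class. It acts late in root hair development, after the related factors RHD6 and RSL1, and its dose sets how long root hairs grow. Loss of the factor gives short hairs and an excess gives long ones. Root hairs grow at the tip by secretion of wall material and membrane, steered by the cytoskeleton, so that wall enzymes, vesicle proteins and motor proteins are the classes usually looked at in such mutants.

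The study hybridised root RNA of 3 genotypes, each with 2 samples on an array of its own: Col-0, the mutant rsl4-1 in the Col-0 background, and plants in the same background in which the viral 35S promoter, active in most plant tissues, drives RSL4. The labels enter a T-DNA knock-out for rsl4-1 and, despite its name, for 35S::RSL4 as well, so genotypes follow the sample titles. All samples were roots at growth stage 3.20, grown on vertical plates at pH 5.7 with 1% sucrose under constant light at 25 °C. A chilling of 4 days is given for every sample, and the Col-0 entries also carry one of 2 days. Nothing says whether samples of a genotype were grown apart, so the spread between them may be technical. Only 1 mutant line was used, so that loss of RSL4 and any other difference of that line from Col-0 cannot be told apart. In whole roots, fewer cells of a type and less RNA per cell cannot be told apart either. No probe set was assigned to RSL4 by the annotation used here, and the labels were therefore not checked on the targeted gene.

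The root label was checked on fixed marker lists, of which few genes could be measured. JKD of epidermal patterning had a mean signal of 49.5 in Col-0 and the vascular regulator LHW 149. TRY, also of epidermal patterning, had 3.85 and was under the 40th percentile on all 6 arrays. In the meristem and cell cycle list, AUR1, AUR2 and MCM7 had 85.6, 59.2 and 131 in Col-0, and BBM 11.3. No root cap marker was on the list of annotated probe sets. None of the tested genes among these was called in rsl4-1 against Col-0. In 35S::RSL4 JKD, LHW and MCM7 were lower (limma, adjusted p = 0.0072, 0.018 and 0.039), and AUR1 and AUR2 were not called. For the shoot list, 6 of 44 genes were measured. Their summed signal was 539 to 620 in Col-0, 396 to 429 in rsl4-1 and 387 to 427 in 35S::RSL4, with LHCB4.1 and PSBW lower in rsl4-1 (limma, adjusted p = 0.016 and 0.034) and 4 not called. In 35S::RSL4 against Col-0, LHCB4.1 and LHCB4.2 were lower (limma, adjusted p = 0.0093 and 0.04) and PSBW was not called (adjusted p = 0.097). The summed signal was thus below Col-0 in both genotypes, whereas the 27 genes were chosen to be near the Col-0 level in 35S::RSL4. The part of these shoot transcripts in the differences of the 27 genes was not tested.

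The largest rises belonged to 2 genes of the same superfamily, that of small cysteine-rich secreted proteins which holds lipid transfer proteins and protease inhibitors. The annotation tables give all but AT5G15860 by locus number alone, so that family names in what follows are background knowledge. AT4G33550 had signals of 200 and 174 in Col-0, 340 and 382 in rsl4-1, and 183 and 193 in 35S::RSL4. AT2G37870, the other member of that superfamily, had 151 and 141 in Col-0, 283 and 282 in rsl4-1, and 152 and 178 in 35S::RSL4. Both stood 1.93-fold above Col-0 in rsl4-1 (log2 difference 0.95, SE 0.14, n = 2 arrays per genotype), and in both the lower rsl4-1 array was clear of every other array by at least 0.66 on the log2 scale. AT5G15610, a gene of a protein with the PCI domain found in the proteasome lid and related complexes, had 217 and 195 in Col-0, 374 and 373 in rsl4-1, and 217 and 193 in 35S::RSL4. Its 35S::RSL4 arrays gave nearly the values of the Col-0 arrays, and the difference of rsl4-1 from Col-0 was 0.86 on the log2 scale (1.82-fold).

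**Figure D1:**
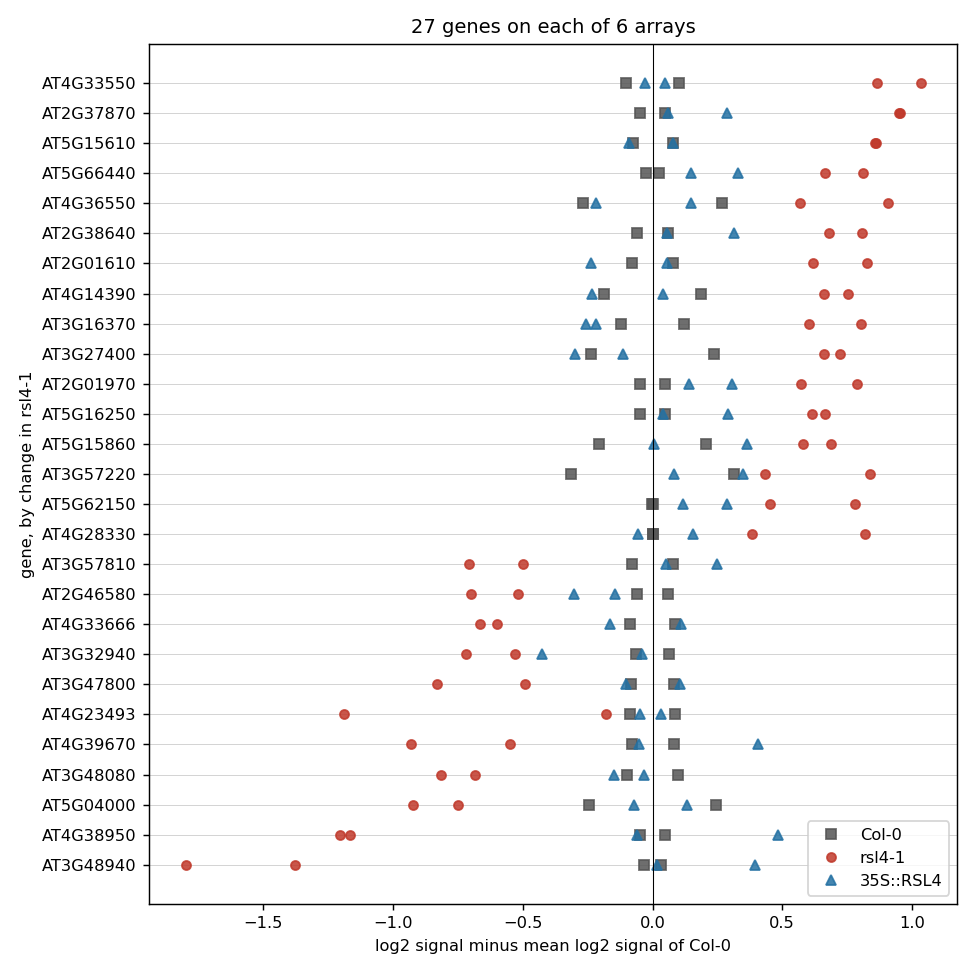
Log2 signal of the 27 genes on each of the 6 arrays, minus the mean log2 signal of the 2 Col-0 arrays of that gene (horizontal axis), with genes ordered by their change in rsl4-1. Squares are Col-0, circles rsl4-1 and triangles 35S::RSL4, and by the choice of genes the circles lie outside the other symbols in every row, up to 0.95 on average for AT4G33550. The lowest row is AT3G48940, whose rsl4-1 arrays were dim, so that its fall is known only as at least 2.42-fold.

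Of the higher genes, 4 are described next whose families are known from the cell wall, lipids or the cell surface, sorted by hand from background knowledge. AT2G01610, which encodes a protein of the invertase and pectin methylesterase inhibitor family, had 55.6 and 49.9 in Col-0, 80.8 and 93.4 in rsl4-1, and 44.7 and 54.7 in 35S::RSL4, a 1.65-fold rise. The pectate lyase gene AT3G27400, whose product cuts pectin, was dimmer, with 30.6 and 22 in Col-0, 42.8 and 41 in rsl4-1, and 21.1 and 24 in 35S::RSL4. AT3G16370, of the GDSL esterases and lipases, had 101 and 85.3 in Col-0, 141 and 162 in rsl4-1, and 79.8 and 77.7 in 35S::RSL4. In all 3 the mean of 35S::RSL4 lay below that of Col-0, by 0.09, 0.21 and 0.24 on the log2 scale, so the order of the means was 35S::RSL4, Col-0 and rsl4-1. AT5G62150, which encodes a protein with the chitin- or peptidoglycan-binding LysM domain, had the other order, with means of 53.9 ± 0.146 (SD, n = 2) in Col-0, 62.1 ± 5.12 in 35S::RSL4 and 83.2 ± 13.4 in rsl4-1.

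AT2G01970, of the nine-transmembrane-segment proteins of the Golgi and endosomes, had 226 and 211 in Col-0, 377 and 325 in rsl4-1, and 241 and 270 in 35S::RSL4. This gene had the highest Col-0 signal of the 27, with a mean of 219. AT5G15860 (PCME), a methylesterase of isoprenylated proteins, had 24.5 and 32.6 in Col-0, 45.5 and 42.3 in rsl4-1, and 28.4 and 36.4 in 35S::RSL4. AT3G57220, of the phosphotransferase family that starts N-glycan synthesis, had 40.1 and 61.9 in Col-0, 67.3 and 89 in rsl4-1, and 52.8 and 63.5 in 35S::RSL4. The Col-0 arrays of AT3G57220 differed from each other by 0.63 on the log2 scale, as much as the 0.64 between rsl4-1 and Col-0. The related gene GPT, singled out after its values were seen, had means of 75.9 in Col-0, 94.7 in rsl4-1 and 101 in 35S::RSL4 and was not called in rsl4-1 (limma, adjusted p = 0.4).

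Of the remaining higher genes, AT4G36550 encodes a U-box protein, a class that attaches ubiquitin, AT4G14390 an ankyrin repeat protein and AT2G38640 a protein related to LURP1. AT4G36550 had 23.4 and 33.9 in Col-0, 41.8 and 52.9 in rsl4-1, and 31.2 and 24.2 in 35S::RSL4. AT4G14390 had 30.1 and 39.1 in Col-0, 57.9 and 54.3 in rsl4-1, and 35.3 and 29.2 in 35S::RSL4. Both genes were thus low in signal in Col-0, where the 2 arrays of AT4G36550 differed by 0.53 and those of AT4G14390 by 0.38 on the log2 scale. In rsl4-1 the arrays differed by 0.34 and 0.09 in the same order. AT2G38640 had 65.9 and 71.5 in Col-0, 110 and 120 in rsl4-1, and 71.4 and 85.4 in 35S::RSL4. No role is stated for AT5G66440, AT5G16250 and AT4G28330, whose rsl4-1 means were 225 ± 16.4, 232 ± 6.17 and 40.4 ± 8.62 against 135 ± 3.5, 149 ± 6.81 and 26.3 ± 0.02 in Col-0 (SD, n = 2 each). Their log2 differences were 0.74, 0.64 and 0.60.

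The largest falls were those of a remorin gene and a kinesin gene. AT3G48940, a gene of the remorins, proteins that mark patches of the plasma membrane, had 51.3 and 53.8 in Col-0, a mean of 17.7 ± 3.6 in rsl4-1 (SD, n = 2), and 53.1 and 69.1 in 35S::RSL4. Both rsl4-1 arrays were under the 40th percentile of their array, the level taken here as dim, so the fall was at least 2.42-fold. AT4G38950, which encodes a kinesin, a motor that moves along microtubules, had 74.7 and 79.7 in Col-0, 33.5 and 34.4 in rsl4-1, and 108 and 74.1 in 35S::RSL4. It was 2.27-fold lower in rsl4-1 (log2 difference -1.19, SE 0.19), and 1 of the 35S::RSL4 arrays stood above both Col-0 arrays. The gap of AT4G38950 between rsl4-1 and the nearest other array was 1.11 on the log2 scale, the widest of the 25 genes that were above the dim level on all 6 arrays.

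Among the other lower genes, AT3G48080 encodes a lipase-like protein close to the immune regulator EDS1. It had 56.6 and 64.8 in Col-0, 34.4 and 37.7 in rsl4-1, and 54.6 and 59.2 in 35S::RSL4, a 1.68-fold fall. AT4G39670, of the glycolipid transfer proteins, had 46.3 and 51.8 in Col-0, 33.5 and 25.7 in rsl4-1, and 47.3 and 64.9 in 35S::RSL4. AT3G32940, which encodes an RNA-binding protein with a KH domain, had 133 and 122 in Col-0, 77.3 and 88.3 in rsl4-1, and 124 and 94.8 in 35S::RSL4. One 35S::RSL4 array of AT3G32940 came within 0.10 on the log2 scale of the higher rsl4-1 array, so its groups were barely apart. AT2G46580, of the pyridoxamine phosphate oxidase family of vitamin B6 metabolism, had 76 and 69.8 in Col-0, 50.9 and 44.9 in rsl4-1, and 59.1 and 65.9 in 35S::RSL4. AT3G57810, a cysteine protease gene of the OTU type that removes ubiquitin, had means of 38.4 ± 3 in Col-0, 25.3 ± 2.5 in rsl4-1 and 42.6 ± 4.1 in 35S::RSL4. AT3G47800, a galactose mutarotase-like gene of sugar metabolism, had 42.2 ± 3.4, 26.9 ± 4.45 and 42.3 ± 4.4 in the same order (SD, n = 2 each). In both the 35S::RSL4 mean was about that of Col-0.

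For 3 of the lower genes no role is stated. AT5G04000 had 52.2 and 37.1 in Col-0, 26.2 and 23.2 in rsl4-1, and 41.9 and 48.3 in 35S::RSL4, and AT4G33666 had means of 49.7 ± 4.19, 32.1 ± 1.06 and 49 ± 6.61 (SD, n = 2 each). AT4G23493 had 59.9 and 53.1 in Col-0, 49.8 and 24.7 in rsl4-1, and 54.6 and 57.7 in 35S::RSL4. Its rsl4-1 arrays were 1.01 apart on the log2 scale, the widest replicate difference of any of the 27 genes, and the higher of them was only 0.09 below the nearest other array. For AT4G23493 a single rsl4-1 array thus carried most of the difference of -0.69.

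**Figure D2:**
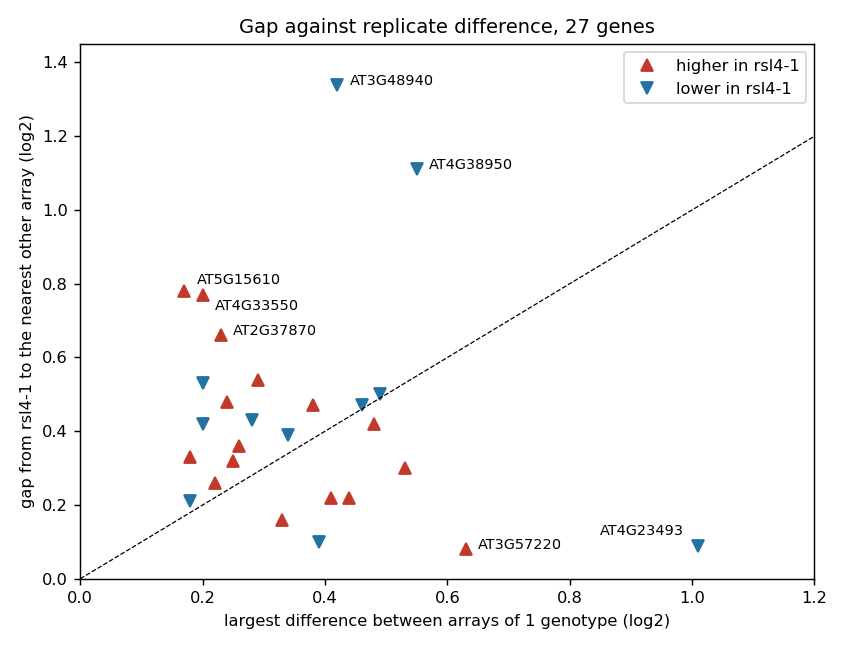
Gap on the log2 scale between the nearer rsl4-1 array and the closest of the other 4 arrays (vertical axis) against the largest difference between the 2 arrays of any genotype (horizontal axis), 1 point per gene, with the dashed line at equality. In 19 of the 27 genes the gap was the larger, with AT3G48940 (plotted at its dim rsl4-1 signals) and AT4G38950 highest and AT4G23493 and AT3G57220 far below the line.

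Apart from AT3G48940, whose gap is taken from a dim array, that gap ran from 0.08 to 1.11 on the log2 scale. Its median over the 27 genes was 0.42, and it was under 0.2 for 4 genes, AT3G57220, AT4G23493, AT3G32940 and AT5G62150. It was larger than the largest replicate difference in 19 genes. The rule asks for a gap above 0 and a size of at least 0.6, which favours such a count. The share over all tested probe sets was not counted. The genes had low signals among the 4649 probe sets that reached the level asked for. The median of their mean signals over the 6 arrays was 61.1, against 108 for those probe sets, and 21 of 27 lay under that median. The standard errors of the log2 differences ran from 0.14 to 0.25. The median replicate difference of the 27 was 0.16 in Col-0, 0.18 in rsl4-1 and 0.21 in 35S::RSL4, against 0.15, 0.16 and 0.18 over all tested probe sets. All 27 were tested by limma, since each passed the filter on dim probe sets, and 25 were above the 40th percentile on all 6 arrays. All 27 are protein-coding with a probe set of the type designed for 1 gene, and none has another 1-gene probe set to set beside it.

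In the limma fit over all 14170 tested probe sets, 14 of the 27 were called in rsl4-1 against Col-0, beside 3.81% of all probe sets (adjusted p under 0.05). These were 9 higher genes, beside 1.67% of all called higher, and 5 lower ones, beside 2.15% called lower. In rsl4-1 against 35S::RSL4, 13 were called, beside 5.46% of all probe sets, 7 of them higher (2.27% of all) and 6 lower (3.19% of all). Nothing is read from these counts, since the same contrasts chose the genes. AT3G48940, AT4G38950, AT5G04000, AT3G48080, AT3G16370, AT2G01610, AT5G15610, AT2G37870 and AT4G33550 were called in both contrasts, and 9 genes in neither. None was called in 35S::RSL4 against Col-0, beside 6.27% of all probe sets (3.39% higher and 2.88% lower), and none had an unadjusted p under 0.05, which the limit of 0.25 fixes in large part. The 2 contrasts with Col-0 share its arrays, and those with rsl4-1 share the rsl4-1 arrays. Median centring moves rsl4-1 against Col-0 by 0.046 and 35S::RSL4 against Col-0 by 0.11 on the log2 scale over all genes. With it, 11 higher and 3 lower members were called in rsl4-1 against Col-0, beside 323 higher and 261 lower of all 14170 probe sets. With quantile normalization they were likewise 11 and 3, beside 264 and 285 of all, where the scaling as deposited gave 236 and 304. The number called fell to 6 without Col-0 replicate 1, to 6 without Col-0 replicate 2, to 7 without rsl4-1 replicate 1 and to 6 without rsl4-1 replicate 2. Over all probe sets the calls fell from 540 to 252, 204, 222 and 236 in the same order.

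Which genes meet the rule depended on single arrays and on the scaling. Median centring left 16 genes in the set, 12 of them shared with the 27, and quantile normalization 21, of which 16 were shared. With these 2 scalings, and with each array's 20th percentile added before the log, 10 of the 27 met the rule every time. Without rsl4-1 replicate 1 the rule took 58 genes, 23 of them among the 27. Only AT2G01610, AT3G48080, AT4G33550 and AT5G15610 met it with each array left out in turn. Close to the size limit, AT4G28330, AT3G57810 and AT2G46580 were just inside with log2 differences of 0.601, -0.602 and -0.608. AT3G48510, AT4G33490 and AT3G07320 missed the set by this limit alone, with 0.599, 0.595 and 0.588, and the signals of AT3G07320, 220 and 217 in Col-0 against 320 and 337 in rsl4-1, were as well separated as those of many genes inside.

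In 10 of the 16 genes that were higher in rsl4-1 the mean of 35S::RSL4 was also above Col-0, with a median of 0.11 over the 16 on the log2 scale. For the 11 lower genes the median was 0.00, with 6 above Col-0. AT5G66440 and AT2G01970 had the largest such values among the higher genes, 0.24 and 0.22 on the log2 scale, shared by AT3G57220 at 0.22. AT3G16370 had the lowest, -0.24, so that the genes near the limits of the rule leaned either way.

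The order of loci along the chromosomes was not part of the rule, apart from the stretch left out. Chromosomes 2, 3, 4 and 5 held 5, 8, 8 and 6 of the genes out of 927, 1288, 917 and 1517 probe sets that reached the level. In 5 cases consecutive genes of the set were at most 50 annotated loci apart, which involved 9 genes, and 4 of these pairs went the same way. They were AT2G01610 with AT2G01970 (49 loci, both higher), AT3G47800 with AT3G48080 (35 loci, both lower), AT5G15610 with AT5G15860 and AT5G15860 with AT5G16250 (38 and 45 loci, all higher), and AT4G33550 with AT4G33666 (16 loci, opposite). AT3G47800, AT3G48080 and AT3G48940 lay 75, 110 and 236 loci past the end of the chromosome 3 stretch, and all 3 were lower in rsl4-1. The same interval, whose end is set by AT3G48940 itself, also holds SWEET11, which was higher in rsl4-1 (limma, log2 difference 1.16, adjusted p = 0.00021), and AT3G48510, at 0.599 on the log2 scale. In the stretch itself 13 of 74 tested probe sets were called in rsl4-1 against Col-0. How the stretch was chosen is not stated here. A choice made on these same arrays would raise that count, so nothing is read from it. Over the 236 loci past the stretch, 2 of 41 were called once the genes of the set were left out (4.88%). Over all such probe sets of chromosomes 2 to 5 outside the stretch the share was 2.11%. The 2 were SWEET11, which was higher, and AT3G47680, which was lower.

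**Figure D3:**
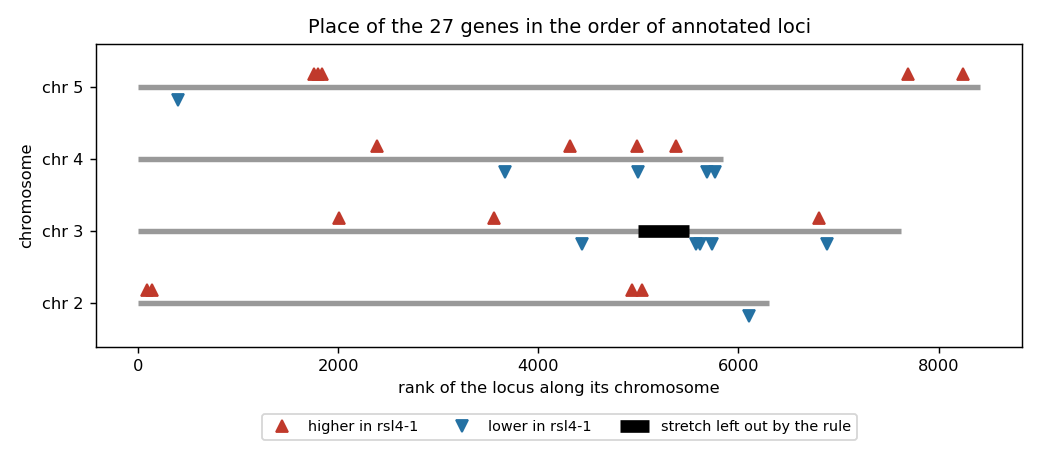
Place of the 27 genes by rank among the annotated loci of chromosomes 2 to 5 (horizontal axis), with upward triangles for genes higher and downward triangles for genes lower in rsl4-1. The black bar is the stretch AT3G44070 to AT3G47250 that the rule leaves out, and 3 of the 11 lower genes follow it within 236 loci.

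Loci next to the set were looked at within 25 loci on either side, a distance chosen after the data were seen. Of 326 such tested probe sets 10 were called in rsl4-1 against Col-0 (3.07%), 5 higher and 5 lower, and of 5218 others on these chromosomes outside the stretch 107 were called (2.05%). Both together came to 2.11%. In 9 of the 10 the call went opposite to the nearest gene of the set, and no such share was counted elsewhere. AT2G38500 was under the 40th percentile on both arrays of Col-0 and of rsl4-1, and AT4G33810 on both Col-0 arrays. AT5G62210, TET5, UGT88A1, SWEET11 and AT4G33810 were also called in 35S::RSL4 against Col-0, in the same direction as in rsl4-1. SP1L4 was called there in the opposite direction. The neighbours named next were chosen after their values were seen. The closest was SP1L4 (AT5G15600), named after the microtubule protein SPIRAL1 and the locus next to AT5G15610. SP1L4 had 170 and 176 in Col-0, 88.4 and 93.5 in rsl4-1, and 254 and 247 in 35S::RSL4 (limma, rsl4-1 against Col-0, log2 difference -0.93, adjusted p = 0.00066). Its genotypes did not overlap and ran from rsl4-1 over Col-0 up to 35S::RSL4, while its neighbour AT5G15610 was high in rsl4-1 alone.

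AT4G33720, one of the CAP genes (secreted, cysteine-rich proteins), lies 8 loci from AT4G33666 and 24 from AT4G33550. The rule leaves CAP genes out. AT4G33720 also failed the limit of 0.25, with a log2 difference of -0.62 between 35S::RSL4 and Col-0, taken from dim 35S::RSL4 arrays. AT4G33720 had 24.7 and 21.7 in Col-0, 240 and 243 in rsl4-1, and 19.4 and 11.7 in 35S::RSL4. On this part of chromosome 4 it and AT4G33550 were thus both high in rsl4-1 alone, with AT4G33666 low. AT3G47680, between the chromosome 3 stretch and AT3G47800, had 33.4 and 40 in Col-0, 16.4 and 22.8 in rsl4-1, and 36.5 and 33 in 35S::RSL4 (limma, rsl4-1 against Col-0, log2 difference -0.92, adjusted p = 0.037). It had the pattern of the set and missed it by its level alone. It was also the 1 called neighbour whose 35S::RSL4 mean lay within 0.25 of Col-0.

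**Figure D4:**
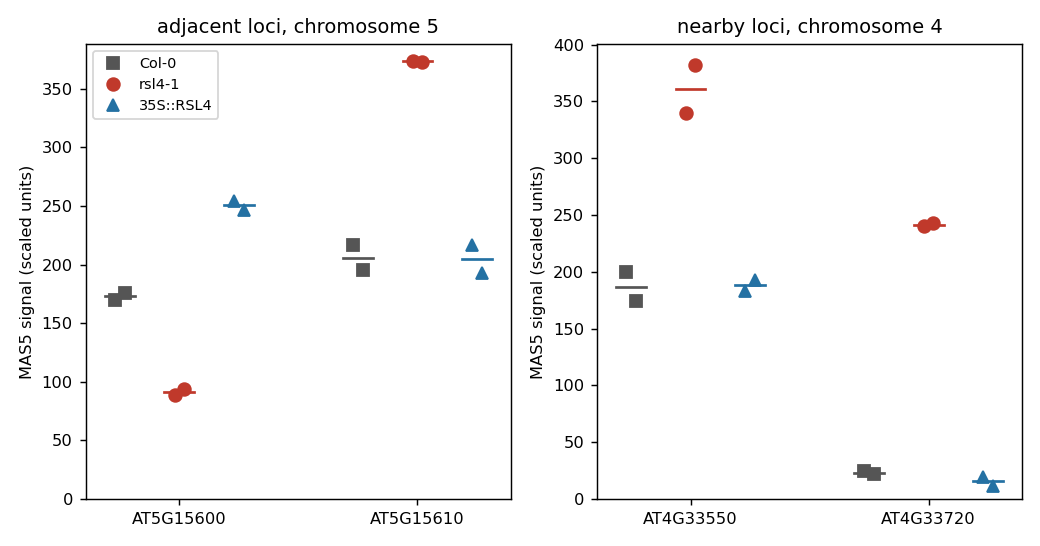
MAS5 signal (vertical axis, scaled units, from 0) of 2 pairs of nearby loci, with 1 symbol per array, squares for Col-0, circles for rsl4-1 and triangles for 35S::RSL4, and a bar at the mean of each genotype. AT5G15600 fell to 90.9 in rsl4-1 where the adjacent AT5G15610 rose to 373, and AT4G33550 and AT4G33720 were both highest in rsl4-1.

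None of the 27 genes was in the 26 gene lists drawn up for root hair growth, nutrient starvation, hormones, defence, wall polymers, stress, the clock and cell types. Of 658 list genes with a locus, the annotation allowed 40 to be tested, in 19 of the lists, among 14170 tested probe sets. No gene of the root hair regulator list and only 1 of the tip growth list had an annotated probe set. An overlap with the 27 genes was thus unlikely from the start, and nothing is read from its absence. In rsl4-1 against Col-0, 3 of the 40 were lower, none was higher and 37 were not called by limma, with a median of -0.09 on the log2 scale beside -0.03 over all tested probe sets. At an unadjusted p under 0.05, 2 were higher and 7 lower. The 3 were LHCB4.1, PSBW and CHIL, a chalcone isomerase-like gene of flavonoid synthesis, and CHIL was as low in 35S::RSL4, with means of 181 in Col-0, 117 in rsl4-1 and 119 in 35S::RSL4. The defence list had 2 tested members, neither of them called. SAG101, a partner of EDS1, was too dim to be tested, with a mean of 19.4 in Col-0. Nothing is therefore said of genes that work with EDS1.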

How the data were processed

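Root RNA of 3 genotypes with 2 samples each was measured on 6 Affymetrix ATH1 arrays. The authors deposited 1 linear intensity per probe set and array. The submitters' processing notes name GCOS and MAS5 for it, and software versions are not given in the sources used here. With 2% trimmed at each end, all arrays had a mean of 100.01, and no further scaling was applied. A change in total RNA is hidden by such scaling, and MAS5 is noisy for dim probe sets. Detection calls were not used here.

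Of 22810 probe sets, 64 controls were left out. Of the rest, 13513 had 1 gene in the platform annotation and 503 had several, while 8730 were not on it and stay unnamed. Loci and their order came from the RefSeq table of TAIR10.1, without coordinates, since no build comes with the values. Extensins, class III peroxidases and CAP genes were recognised by locus from general knowledge. Log2 signals of 14170 probe sets above the 40th percentile on at least 2 arrays were fitted over all 6 arrays with limma 3.58.1 in R 4.3.3 (lmFit, eBayes with an intensity trend), with Benjamini-Hochberg adjustment over all of them, two-sided, and a threshold of 0.05. The fit was tested on simulated data. An exact permutation test of 2 against 2 arrays cannot go below p = 0.333 and was not used. The number of arrays limits the precision. The genes described and the lists were chosen with earlier results of these data known. All genes that met the rule are named, as are the 3 nearest misses and the list genes called.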

Additional observations from a re-analysis of the deposited data

How the results depend on the processing

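The number of genes that met the rule, 27, came to 16 with median centring, 6 with a size of at least 0.8, 12 with 35S::RSL4 within 0.15 and 12 with a highest genotype mean of at least 80, and leaving out 1 array each gave 19 to 58. For rsl4-1 against Col-0, 540 probe sets were called, 265 with no filter, 357 with no intensity trend, and 204 to 522 without 1 array (252 and 204 without Col-0 replicate 1 or 2, 222 and 236 without rsl4-1 replicate 1 or 2). For 35S::RSL4 against Col-0, 888 were called, 404 with no filter, 564 with no intensity trend, and 212 to 759 without 1 array. For rsl4-1 against 35S::RSL4 the counts were 774, 482 with no filter, and 349 to 653. Of the 27 genes 14 were called in rsl4-1 against Col-0, 9 with no intensity trend, and 6 to 13 without 1 array. AT4G38950, AT5G15610, AT2G37870 and AT4G33550 were called under all 14 alternatives of the fit. The choice of genes fixes their direction, so that no change of sign is no sign of stability. With the 60th percentile filter 13 of the 27 were not tested. Of the calls over all tested probe sets in rsl4-1 against Col-0, 43.7% were higher, and 55.3% with median centring. For rsl4-1 against 35S::RSL4 the shares were 41.6% and 29.3%, and for 35S::RSL4 against Col-0, on which the limit of 0.25 rests, 54.1% and 79.2%. The cause of these shifts was not tested. The replicate numbers are not stated to pair samples, and differences between replicates 1 and 2 correlated at -0.189, 0.118 and -0.0849 between genotypes. A replicate block gave 520, 802 and 737 calls in the 3 contrasts and called 14 of the 27. With 1 array removed, its genotype keeps a single array, whose variance is taken from the other genotypes.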
